A study of Mus musculus with 2 samples.

Results

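The genes described here are 7 genes of cholesterol synthesis and its control (Hmgcs1, Sqle, Idi1, Insig1, Fdps, Fdft1 and Cyp51) and Por, which encodes cytochrome P450 oxidoreductase. These 8 of the 27998 genes in the files were chosen by their gene symbol, after earlier values of the GKO to WT ratio in these same libraries had drawn attention to them, so their GKO to WT ratios are given as descriptions and not as tests. The study asked how loss of ghrelin changes pancreatic islets, and single-cell RNA sequencing (10x Genomics 3′ libraries, which count RNA molecules as unique molecular identifiers, UMIs) was done on viable sorted islet cells of wild-type (WT) mice and of mice homozygous for deletion of the ghrelin gene (GKO). Both groups were male C57BL/6N littermates, 8 weeks old and fed standard chow without restriction. Islets of 4 mice per genotype were pooled into 1 library, so there is no replicate of either genotype, no test between genotypes is possible, and the intervals below cover counting error only. The GKO lacks ghrelin in every tissue from conception, and differences between the 2 pools cannot be told apart from differences between the genotypes.

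Cholesterol is built from acetyl-CoA by a chain of enzymes. Hmgcs1 makes HMG-CoA, and Idi1 and Fdps turn the isoprenoid units into farnesyl diphosphate. Fdft1 joins these into squalene, Sqle oxidizes squalene, and Cyp51 removes a methyl group from lanosterol. Insig1 holds the SREBP transcription factors in the endoplasmic reticulum when sterols are plentiful and is itself a target of SREBP. Por passes electrons from NADPH to microsomal cytochrome P450 enzymes, Cyp51 among them, and to Sqle, but it also serves drug, steroid and heme metabolism. In islets, cholesterol is a component of the membranes through which hormone granules are secreted.

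On the mouse build GRCm38 (mm10, GENCODE annotation), Hmgcs1 lies on chromosome 13 (119690379 to 119708260, plus strand), as does Idi1 (8885501 to 8892451, plus). Sqle is on chromosome 15 (59315077 to 59331192, plus), Fdps on chromosome 3 (89093588 to 89101959, minus) and Fdft1 on chromosome 14 (63145150 to 63179578, minus). Insig1 (28071363 to 28078662, plus), Cyp51 (4081145 to 4104746, minus) and Por (135670033 to 135735326, plus) are on chromosome 5. RefSeq promoter windows (GRCm38.p6, from 250 bases before the start site to 50 after its first base) were matched for 5 of the 8 genes: Hmgcs1, Idi1, Insig1, Cyp51 and Por. They were searched on both strands for TCACNCCAC (a form of the sterol regulatory element), CACGTG (the E-box), CCAAT (the NF-Y box) and GGGCGG (the GC box), none of which overlapped another in the stretches printed. Of 32851 windows of this length in the table, 1.24% held the sterol element, 7.15% the E-box, 37.4% the NF-Y box and 35.7% the GC box. Stretches of 30 bases are shown for the enzyme gene Hmgcs1, for the regulator Insig1 and for Por, with the matches in capitals.
Hmgcs1 (chr13:119690204-119690233, plus strand, sterol element in capitals): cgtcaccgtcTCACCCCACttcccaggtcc
Insig1 (chr5:28071299-28071328, plus strand, E-box in capitals): gctgggtgaggtCACGTGgctccggtggca
Por (chr5:135688958-135688987, plus strand, GC box in capitals): ggagaggatgagGGGCGGgacctaggagct
The Hmgcs1 window held the only match to the sterol element among the 5, with 4 NF-Y boxes and 3 GC boxes. Idi1 held 2 NF-Y boxes and 1 GC box, Cyp51 held 1 of each, and Insig1 held 1 NF-Y box, 1 E-box and 3 GC boxes. The Por window, which lies inside the annotated span of the gene, held 4 GC boxes and no match to the other motifs. These are letter matches only, and no binding was measured.

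The WT library held 7792 cell barcodes with 158067110 UMIs (median 13934 per barcode) and the GKO library 7289 barcodes with 103511757 UMIs (median 10521), and 18 barcodes occurred in both. Ghrl, the deleted gene, had 43634 UMIs in WT (276 per 1000000 UMIs, CPM) and 280 in GKO (2.71 CPM). After barcodes with under 500 genes or over 10% mitochondrial UMIs were set aside (692 in WT and 943 in GKO), a barcode was put in the class of its leading hormone (Gcg, insulin, Sst or Ppy) where that made up at least 10% of its UMIs, and called nonendocrine where all hormones together were under 5%. This gave 1048 WT and 1397 GKO Gcg-leading barcodes, 2265 and 872 Ins-leading, 1414 and 1003 Sst-leading, 717 and 669 Ppy-leading, and 1474 and 2245 nonendocrine barcodes. A further 182 and 160 barcodes met neither rule, and 246 and 225 had a leading hormone between 8% and 12%, near the limit. Median depth was close between libraries within each class, and lower in GKO in each. It was 12502.5 and 12174 UMIs in Gcg-leading, 37124 and 35811 in Ins-leading and 11065 and 10148 in Sst-leading barcodes. Ppy-leading barcodes were at 21737 and 21717 UMIs and nonendocrine barcodes at 8068 and 7851. Markers of other cell types moved with genotype inside the hormone classes: the 5 acinar markers were at 289 to 368 CPM in the 4 WT classes and at 65.9 to 219 CPM in GKO, and the 7 activated stellate markers at 6.22 to 88.4 CPM in WT and 47.6 to 171 CPM in GKO. Their part in the values below was not tested.

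Por, the electron donor, was lower in GKO in all 4 hormone classes and differed most in Gcg-leading barcodes, where its level was 108.8 CPM in WT (95% Poisson interval 103.5 to 114.3, 1577 UMIs) and 57.4 CPM in GKO (54.0 to 60.9, 1075 UMIs). The log2 ratio of GKO to WT was -0.92 (95% interval -1.04 to -0.81), a GKO level 0.527 times that of WT. Values are given for WT and then GKO from here on. In Ppy-leading barcodes Por was at 85.4 CPM in WT and 55.5 CPM in GKO (log2 ratio -0.62, interval -0.74 to -0.50). The Ins-leading levels were 51.8 CPM and 37.1 CPM (-0.48, -0.58 to -0.39). Sst-leading barcodes had the narrowest gap, at 69.5 and 60.01 CPM (-0.21, -0.35 to -0.07). With the leading hormone at 25% or more, the Sst-leading ratio was -0.059 with an interval that held 0 (-0.53 to 0.41), as did the intervals after thinning to 5000 UMIs and in barcodes of 10000 to 30000 UMIs. In nonendocrine barcodes the levels were 36.9 CPM and 38.9 CPM, with an interval that held 0 (0.08, -0.08 to 0.24).

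Among the 9184 genes with at least 200 UMIs over both libraries of the Gcg-leading class, 1.7% were lower in GKO by at least 0.5 on the log2 scale (1.41-fold), and 41 genes had a lower ratio than Por. In Ppy-leading barcodes 1.28% of 8291 genes were lower by that much and 57 lay below Por. The share was 1.68% of 10703 genes in Ins-leading barcodes, where Por missed the limit by its ratio of -0.48 and 196 genes lay below it. In Sst-leading barcodes, with 1.82% of 9126 genes lower, 957 lay below Por, and in nonendocrine barcodes, with 6.45% of 10700 genes lower, 59.1% did. Because Por was picked on this contrast, nothing further is read from these ranks.

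**Figure D1:**
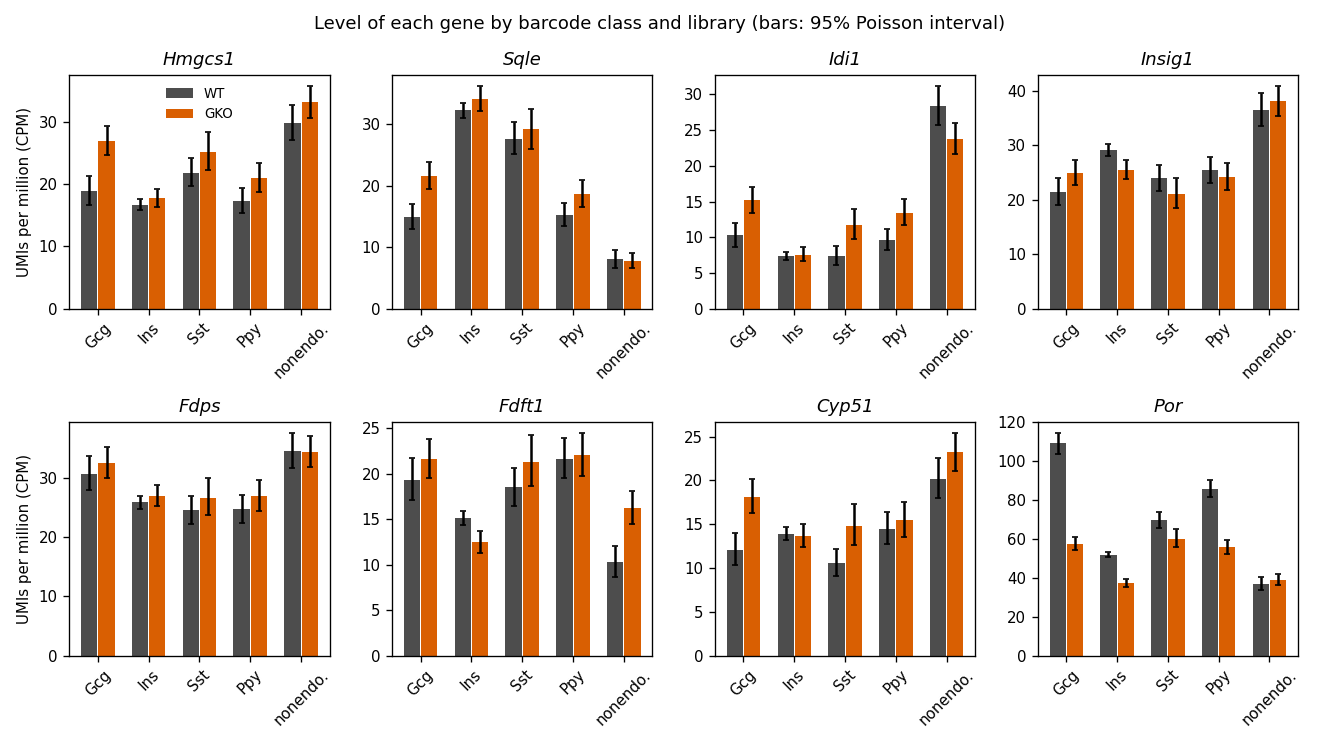
Level of each of the 8 genes (CPM, vertical axes from 0, a separate scale for each gene) in the 5 barcode classes, with WT in grey and GKO in orange; bars span the 95% Poisson interval of 1 library. The Por bars of the Gcg-leading class stand at 108.8 CPM in WT and 57.4 CPM in GKO, while in nonendocrine barcodes they stand at 36.9 and 38.9 CPM.

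The order of the classes by Por level also differed between libraries. In WT the level went from Gcg-leading (108.8 CPM) through Ppy-leading (85.4), Sst-leading (69.5) and Ins-leading barcodes (51.8), and each of the first 3 stood clear of the next by its counting interval. In GKO the Sst-leading (60.01 CPM), Gcg-leading (57.4) and Ppy-leading (55.5) classes had overlapping intervals, and the Ins-leading class (37.1) was the lowest of the hormone classes. CPM was also taken over UMIs other than the 5 hormone genes, so that the large insulin share does not dilute the rest. On that scale the Por ratio was -0.92 in Gcg-leading, -0.56 in Ins-leading, -0.22 in Sst-leading and -0.64 in Ppy-leading barcodes. WT levels were then 151.5 in Gcg-leading, 135.3 in Ppy-leading, 133.8 in Ins-leading and 89.55 in Sst-leading barcodes. GKO levels were 90.8 in Ins-leading, 86.59 in Ppy-leading, 80.14 in Gcg-leading and 76.94 in Sst-leading barcodes. In GKO the Ins-leading class was thus the lowest hormone class with hormone UMIs counted and the highest without them.

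Nonendocrine barcodes were split by markers fixed for each cell type (at least 3 markers detected and at least 2 more than of any other type). Por was at 37.3 CPM in WT and 35.3 CPM in GKO in endothelial-like barcodes (553 and 428), and at 25.3 and 21.8 CPM in macrophage-like barcodes (192 and 447), with intervals of the ratio that held 0. In quiescent stellate-like barcodes only 18 and 36 Por UMIs were counted. Por was higher in GKO in activated stellate-like barcodes (250 and 564), at 41.8 and 54.4 CPM (log2 ratio 0.38, 0.05 to 0.72). It was also higher in ductal-like barcodes (69 and 93), at 48.0 and 84.0 CPM (0.81, 0.36 to 1.27). Ductal-like barcodes thus had the highest Por level in GKO among the hormone classes and these marker groups, with hormone UMIs counted. Without hormone UMIs their GKO level was 84.4, below 90.8 in Ins-leading and 86.59 in Ppy-leading barcodes. The number of Por UMIs in ductal-like barcodes was 65 and 120. The makeup of the ductal-like group differed between libraries, with acinar markers at 13310 CPM in WT and 124.6 CPM in GKO. Ductal markers were at 8229 and 14050 CPM in it. The part of this in the Por values was not tested.

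Within the Gcg-leading class the Por ratio was below 0 in every bin of depth, mitochondrial share and early-response level, but its size varied. It was -0.84 in barcodes under 10000 UMIs, -0.97 between 10000 and 20000, and -0.95 above. Split by mitochondrial share it lay between -0.74 (under 3%) and -1.003 (3% to 6%). Barcodes were also split into 3 equal bins by the level of 7 early-response genes such as Fos and Jun, which mark dissociation stress. The Por ratio was -0.70 (-0.90 to -0.50) in the lowest bin, -1.04 in the middle and -1.06 in the highest. WT levels were 92.3, 116.9 and 121.9 CPM in these bins, and GKO levels 56.8, 56.7 and 58.5 CPM. The part of dissociation stress in the Por values was not tested. Early-response genes as a group were at 2899 CPM in WT and 3372 CPM in GKO in this class. In barcodes that carried 2 hormones at 10% or more each (183 and 97), where doublets of 2 hormone cells would fall, Por was at 84.9 and 57.9 CPM (-0.55), and in barcodes of neither rule at 108.2 and 61.9 CPM (-0.81). In the 104 and 49 hormone-class barcodes with at least 2 of 4 cycling markers, Por was at 42.9 and 44.7 CPM, with an interval from -0.36 to 0.46. Hormone genes made up 50.4% and 41.2% of UMIs in these cycling barcodes. Without hormone UMIs Por was at 86.5 and 76.0 CPM in them, and the part of this makeup was not tested.

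**Figure D2:**
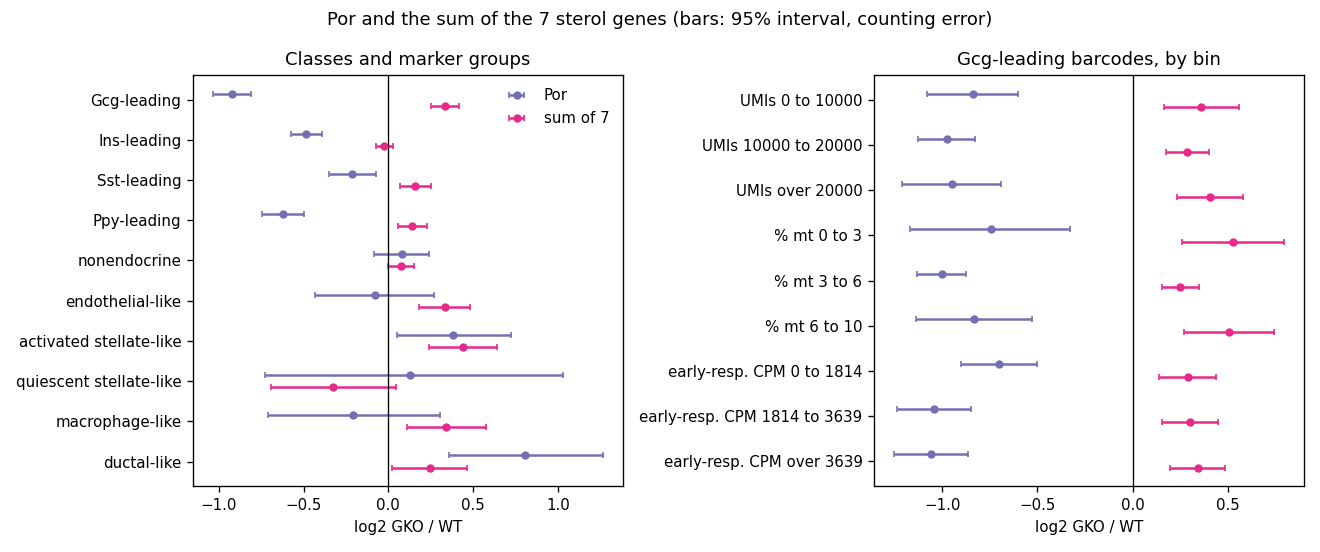
Log2 ratio of GKO to WT (horizontal axes) of Por in purple and of the summed 7 sterol genes in pink, by class and marker group on the left and within bins of the Gcg-leading class on the right; bars span the 95% interval for counting error. In every bin of the Gcg-leading class Por lies at -0.70 or below and the sum of 7 at 0.25 or above, while Por in ductal-like barcodes lies at 0.81.

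Counted per barcode, after each barcode was thinned to 5000 UMIs and shallower ones were left out (11 and 15 in the Gcg-leading class), 41.5% of Gcg-leading barcodes had a Por UMI in WT (exact 95% interval 38.5 to 44.5, n = 1037 barcodes) and 27.1% in GKO (24.8 to 29.6, n = 1382). Unthinned, the shares were 72.9% and 51.3%. Barcodes with 2 or more Por UMIs made up 11.7% and 4.85% of the class after thinning. The thinned shares were 34.4% and 25.8% in Ppy-leading, 23.6% and 19.2% in Ins-leading and 27.8% and 24.9% in Sst-leading barcodes. Macrophage-like barcodes, the lowest in GKO, had 13.2% and 7.86% at median depths of 10185 and 8843 UMIs before thinning. No cell type here is known to lack Por, so this share is an upper guide to free RNA and not a measure of it. Hormone UMIs made up 0.742% and 0.667% of nonendocrine UMIs.

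**Figure D3:**
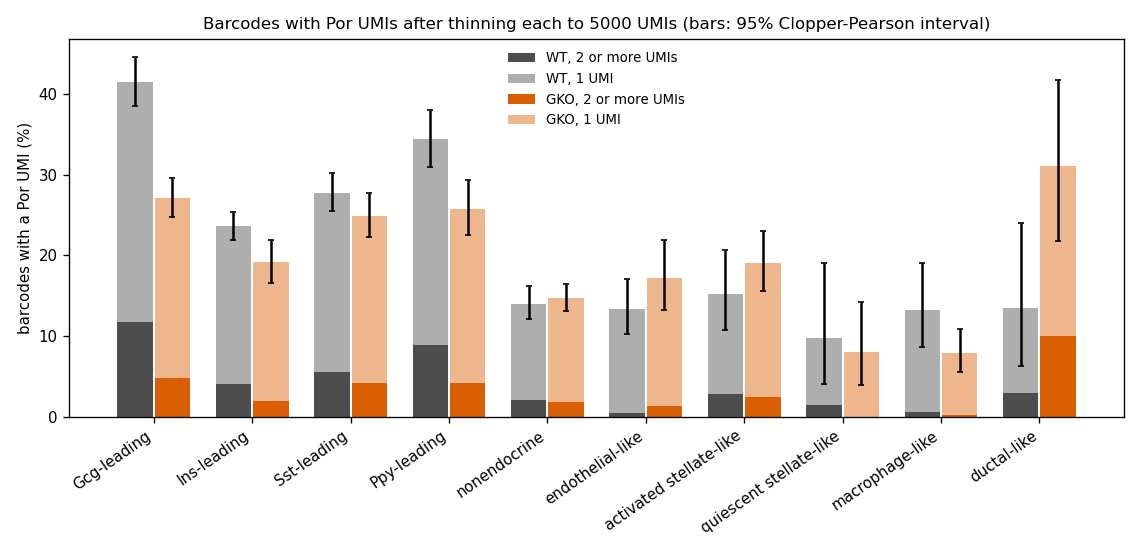
Percent of barcodes with a Por UMI (vertical axis from 0) after thinning to 5000 UMIs, by class and marker group, WT in grey and GKO in orange, with the dark part for 2 or more UMIs and the pale part for 1 UMI; bars span the exact 95% binomial interval over barcodes of 1 library. In the Gcg-leading class the dark part is 11.7% in WT and 4.85% in GKO.

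Of the 7 sterol genes, 4 were higher in GKO by at least 0.5 (log2) in Gcg-leading barcodes, where 1.48% of all genes with at least 200 UMIs were, and none was lower by that much. All 7 ratios were above 0, with a median of 0.51 beside 0.05 over all 9184 genes. The 4 lay close to the limit: with the leading hormone at 25% or more, with TMM scaling, or with barcodes thinned to 5000 UMIs, 2 of the 7 passed it, and all 7 ratios stayed above 0. The 7 genes were chosen with this contrast known, and the counts support nothing beyond it.

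The enzymes early in the pathway were at low levels and their sums rest on 149 to 610 UMIs each in Gcg-leading barcodes. Hmgcs1, which makes HMG-CoA, was at 18.9 CPM in WT (16.7 to 21.3, 274 UMIs) and 26.9 CPM in GKO (24.6 to 29.4, 504 UMIs) in Gcg-leading barcodes, a log2 ratio of 0.51 (0.29 to 0.73). Idi1, the isopentenyl diphosphate isomerase, was at 10.3 and 15.2 CPM (0.56, 0.27 to 0.86). Fdps, the farnesyl diphosphate synthase that follows it, was at 30.7 and 32.6 CPM, with an interval from -0.09 to 0.26.

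The squalene and sterol steps were split in the same way. Fdft1, squalene synthase, was at 19.3 and 21.6 CPM in Gcg-leading barcodes (0.16, -0.06 to 0.39). Sqle, the squalene epoxidase that takes electrons from Por, was at 15.0 and 21.6 CPM (0.53, 0.29 to 0.77). Cyp51, the lanosterol demethylase that also depends on Por, was at 12.1 and 18.2 CPM (0.59, 0.32 to 0.86). Sqle and Cyp51 were thus higher in the class where Por was lowest relative to WT, as were Hmgcs1 and Idi1. In Ppy-leading barcodes, with Por at -0.62, the ratios of Sqle and Cyp51 were 0.29 and 0.10. They were 0.08 and 0.50 in Sst-leading barcodes, with Por at -0.21. A link between these genes and Por was not tested. Insig1, the sterol-sensing regulator, was at 21.4 and 24.9 CPM in Gcg-leading barcodes (0.22, 0.01 to 0.43).

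In Ins-leading barcodes none of the 7 passed the limit in either direction, where 2.48% of genes were higher and 1.68% lower. These shares depend on scaling: the counts were 265 higher and 180 lower, and 158 higher and 297 lower with TMM. Hmgcs1 was at 16.7 and 17.7 CPM and Sqle at 32.2 and 34.1 CPM, both with intervals that held 0. Insig1 was lower in GKO, at 29.0 and 25.4 CPM (-0.19, -0.31 to -0.08), and so was Fdft1, at 15.1 and 12.5 CPM (-0.28, -0.44 to -0.12). The median of the 7 was 0.05 beside 0.09 over all genes. With TMM none of the 7 ratios was above 0, against 4 without it. Without hormone UMIs 2 were above 0. After thinning 3 were above 0, and the Fdft1 ratio was -0.00099 with an interval that held 0. In barcodes of 10000 to 30000 UMIs the ratios moved the other way, with 5 above 0 and a median of 0.157. Hmgcs1 was past the limit there (0.57).

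In Sst-leading barcodes 1 of the 7 genes was higher by the limit, where 1.4% of genes were. It was Idi1, at 7.36 and 11.8 CPM (0.67, 0.31 to 1.04, from 123 and 129 UMIs), and at a ratio of 0.30 (-0.29 to 0.88) after thinning. With the leading hormone at 25% or more, 2 were higher (Idi1 and Sqle) and Insig1 was lower (-0.55), each with an interval that held 0. Cyp51 was at 10.5 and 14.8 CPM, just under the limit (0.50, 0.18 to 0.81) and past it after thinning (0.62) and with up to 20% mitochondrial UMIs (0.51). Its lowest ratio under the processing alternatives was 0.067, below that interval. In Ppy-leading barcodes, where 1.58% of genes were higher, no sterol gene was. Idi1 came nearest there, at 9.62 and 13.4 CPM (0.48, 0.18 to 0.79), followed by Sqle (0.29) and Hmgcs1 (0.28). It was past the limit after thinning (0.76) and with the leading hormone at 25% or more (0.53). With TMM the counts of higher and lower genes over the whole table turned from 131 and 106 to 86 and 150 in Ppy-leading barcodes. They went from 128 and 166 to 95 and 207 in Sst-leading and from 136 and 156 to 101 and 202 in Gcg-leading barcodes, where lower genes were the more numerous already.

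**Figure D4:**
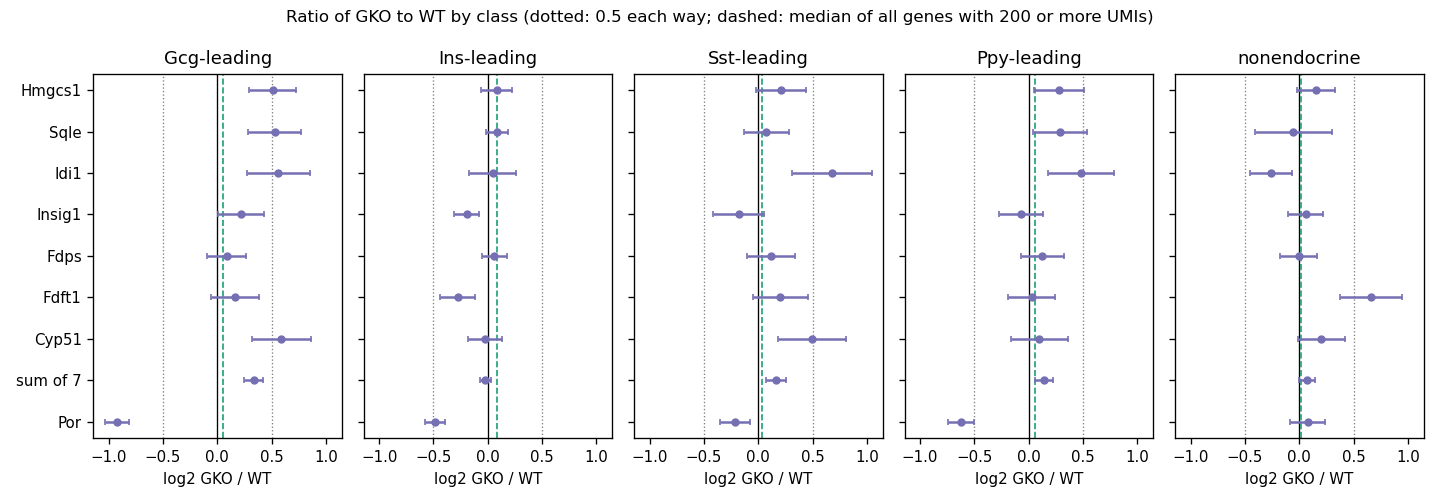
Log2 ratio of GKO to WT (horizontal axes) of each gene, of the summed 7 and of Por in the 5 classes; bars span the 95% interval for counting error, dotted lines stand at 0.5 each way and the dashed line at the median of all genes with at least 200 UMIs. In Gcg-leading barcodes Hmgcs1, Sqle, Idi1 and Cyp51 lie between 0.51 and 0.59, and Por lies at -0.92.

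Nonendocrine barcodes gave another pattern. Fdft1 was the 1 gene of the 7 past the limit, where 9.55% of genes were higher, at 10.3 and 16.2 CPM (0.66, 0.38 to 0.95). It was under the limit as a mean of CPM per barcode (0.48) and after thinning to 5000 UMIs (0.16, -0.29 to 0.63). Its ratio was above 0 in each of the 5 marker groups, and it was 0.73 in endothelial-like and 1.12 in activated stellate-like barcodes, from 45 and 56 and from 12 and 52 UMIs. The Fdft1 interval held 0 in quiescent stellate-like, macrophage-like and ductal-like barcodes. Idi1 was lower in GKO in the class as a whole, at 28.4 and 23.7 CPM (-0.26, -0.45 to -0.06). The marker groups were not alike for Idi1, however. Its ratio was 0.31 in endothelial-like and 0.62 in macrophage-like barcodes, both with intervals that held 0, but -0.93 in quiescent stellate-like barcodes (-1.78 to -0.08) and -0.83 in barcodes without a marker group (-1.21 to -0.45). The makeup of the class differed between libraries, with endothelial-like barcodes fewer in GKO and macrophage-like and stellate-like barcodes more numerous. The 5 acinar markers also differed, at 13710 and 2070 CPM in the class and 65550 and 11490 CPM in barcodes without a marker group. A class ratio carries these differences, and their part was not tested.

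Summed over the 7 genes, the level in Gcg-leading barcodes was 127.6 CPM in WT (121.9 to 133.6) and 160.8 CPM in GKO (155.1 to 166.7), a log2 ratio of 0.33 (0.25 to 0.42). The sum was at 134.3 and 150.1 CPM in Sst-leading (0.16, 0.07 to 0.25) and at 128.3 and 141.6 CPM in Ppy-leading barcodes (0.14, 0.06 to 0.23). It was at 140.3 and 138.0 CPM in Ins-leading barcodes (-0.02, -0.07 to 0.03) and at 167.5 and 176.4 CPM in nonendocrine barcodes (0.07). Among marker groups the ratio of the sum was 0.33 in endothelial-like, 0.44 in activated stellate-like, 0.34 in macrophage-like and 0.24 in ductal-like barcodes, and -0.32 in quiescent stellate-like barcodes with an interval that held 0. Among the hormone classes and these marker groups, with hormone UMIs counted, ductal-like barcodes had the highest sum in both libraries, at 226.0 and 267.4 CPM. Nonendocrine barcodes without a marker group were at 236.9 and 252.7 CPM. B cell-like barcodes, only 37 in WT and 51 in GKO, were at 255.2 and 180.1 CPM. Counted without hormone UMIs, the ductal-like sum was 227.9 and 268.7. The Ins-leading sum was then the highest of the hormone classes and marker groups ranked above, at 362.1 and 338.0. Across depth, mitochondrial and early-response bins of the Gcg-leading class the ratio of the sum in CPM lay between 0.25 and 0.53.

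The Ins-leading class was less even. The ratio of the sum there was -0.15 in barcodes under 3% mitochondrial UMIs, -0.10 between 3% and 6% and 0.29 from 6% to 10%, and it was 0.35 in barcodes of 10000 to 20000 UMIs and -0.06 above 20000. Over the early-response bins it was -0.18 (-0.27 to -0.09) in the lowest, -0.007 in the middle and 0.16 (0.08 to 0.24) in the highest. Split by the insulin share of UMIs and counted per 1000000 UMIs other than hormones, the sum was 260 in WT (229 to 293) and 313 in GKO (275 to 355) where insulin made up 10% to 25%. It was 358 and 354 at 25% to 60%, and 372 (363 to 381) and 326 (312 to 340) above 60%. WT barcodes thus had the higher sum at the highest insulin share. Insig1 had levels of 78.1 and 57.6 in that last bin on the same scale. Por had a lower value in GKO in each bin, from 130 and 107 in the lowest to 131 and 82.7 in the highest. In the lowest bin, of 53 and 37 barcodes, the intervals overlapped (109 to 155 and 85.6 to 133).

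Per barcode, genes of the pathway hardly went together at this depth. After thinning to 5000 UMIs, any of the 7 was seen in 45.8% of Gcg-leading barcodes in WT and 53.6% in GKO, against 51.2% and 49.7% of Ins-leading barcodes. The median Pearson r over the 21 pairs of the 7 genes, across barcodes of a class and library, was between 0.007 and 0.031 in the hormone classes. It was 0.063 in WT and 0.104 in GKO nonendocrine barcodes, which mix cell types. The median r of Por with the 7 lay between -0.025 and 0.056. These barcodes share a library, most counts were 0 or 1, and no relation is read from values this small.

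A further 15 enzymes of sterol and isoprenoid synthesis were listed with earlier results of these data known. Their sum differed less than that of the 7 in Gcg-leading and Sst-leading barcodes, but not in every class. Summed, they were at 219.7 CPM in WT and 254.8 CPM in GKO in Gcg-leading barcodes (0.21, 0.15 to 0.28), and at 173.5 and 178.8 CPM in Ins-leading barcodes (0.04, 0.00 to 0.09). The ratio was 0.05 in Sst-leading barcodes. In Ppy-leading barcodes it was 0.14, as for the 7, and in nonendocrine barcodes 0.13 (0.07 to 0.19) beside 0.07 for the 7. Of the 10 of these 15 enzymes with enough UMIs in Gcg-leading barcodes, 9 had a ratio above 0. By the limit 1 was higher and none lower, where 1.48% and 1.7% of genes were. The higher one was Mvk, mevalonate kinase, at 10.97 and 16.4 CPM (0.58, 0.30 to 0.86). Pmvk, which phosphorylates its product, followed at 31.9 and 41.3 CPM (0.37). Sc5d, a late desaturase, was at 12.8 and 12.5 CPM (-0.02). In Ins-leading barcodes none of the 15 passed the limit, where 2.48% of genes were higher and 1.68% lower. Mvk (0.33) and Ebp, a sterol isomerase (0.29), were highest there, and Acat2 (-0.47) and Msmo1, the methylsterol oxidase (-0.18), lowest.

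None of the 6 measured sensing genes passed the limit in any class. Over all genes, 1.28% to 9.55% passed it in a given class and direction. Srebf2, which encodes the SREBP protein that drives cholesterol genes, was at 26.6 and 25.2 CPM in Gcg-leading barcodes (-0.08, -0.27 to 0.12) and at 15.9 and 14.3 CPM in Ins-leading barcodes (-0.15, -0.31 to -0.00). Scap, its escort protein, was at 18.1 and 17.6 CPM in Gcg-leading barcodes (-0.05), Insig2 at 27.5 and 30.9 CPM (0.16) and Srebf1 at 10.6 and 11.3 CPM (0.08). In Ins-leading barcodes the ratio was 0.14 for Scap, 0.16 for Srebf1 and -0.01 for the protease gene Mbtps1.

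Genes of cholesterol uptake and export went both ways. Of 11 measured in Gcg-leading barcodes, 1 was higher by the limit and none lower, where 1.48% and 1.7% of genes were. Stard4, a carrier of cholesterol within the cell, was at 7.93 and 11.4 CPM (0.52, 0.19 to 0.86), and Soat1, which esterifies cholesterol, at 9.17 and 12.2 CPM (0.41). Abca1, the cholesterol exporter, was at 46.6 and 37.3 CPM (-0.32, -0.48 to -0.17), and Mylip, which targets the LDL receptor, at 7.66 and 6.25 CPM (-0.29, an interval that held 0). In Ins-leading barcodes 1 of 14 was higher and 1 lower, where 2.48% and 1.68% of genes were. Abca1 was at 47.3 and 31.0 CPM there (-0.61, -0.71 to -0.51), and Apoe, the apolipoprotein made in quantity by macrophages, at 60.5 and 154.1 CPM (1.35). Abca1 was also lower in Sst-leading barcodes, at 63.2 and 48.0 CPM (-0.40, -0.55 to -0.25). In Ppy-leading barcodes it was at 25.2 and 17.6 CPM (-0.52, -0.74 to -0.30), past the limit, where 1.28% of genes were lower by that much. Apoe was at 22.7 and 137.2 CPM in Sst-leading (2.59), 128.4 and 153.3 CPM in Ppy-leading (0.26) and 160.3 and 163.8 CPM in Gcg-leading barcodes (0.03, an interval that held 0). Apoe was at 5086 and 8213 CPM in nonendocrine barcodes, and the 6 macrophage markers were at 92.4 and 138 CPM in the Ins-leading and 116 and 160 CPM in the Sst-leading class. Their part in the Apoe values was not tested. Lipa, the lysosomal lipase, had a ratio of 0.35 in Ins-leading barcodes.

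**Figure D5:**
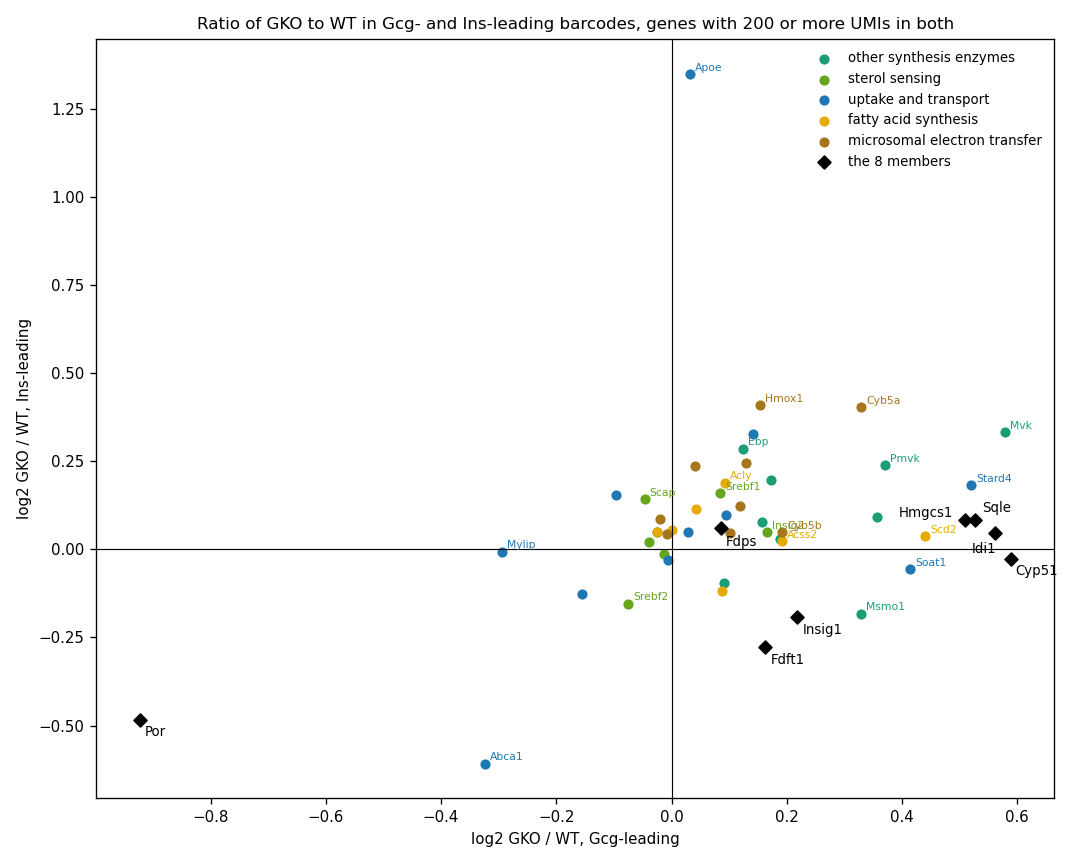
Log2 ratio of GKO to WT in Gcg-leading barcodes (horizontal axis) against that in Ins-leading barcodes (vertical axis) for the 8 genes (black diamonds) and 43 listed genes with at least 200 UMIs in both classes, coloured by list; single genes have no error bars here. Por lies at -0.92 and -0.48, Abca1 at -0.32 and -0.61, and Mvk at 0.58 and 0.33.

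Fatty acid synthesis, which SREBP also drives, had no gene past the limit among the 7 measured in Gcg-leading or in Ins-leading barcodes. In Sst-leading barcodes 1 of 7 was higher by it and in Ppy-leading 1 of 5, where 1.4% and 1.58% of genes were. That gene was Scd2 in both, at 37.6 and 54.1 CPM in Sst-leading (0.52, 0.36 to 0.69) and 7.94 and 11.9 CPM in Ppy-leading barcodes (0.58, 0.26 to 0.91). Scd2, a fatty acid desaturase, was highest in Gcg-leading barcodes, at 18.7 and 25.4 CPM (0.44, 0.22 to 0.66), followed by Acss2 (0.19), while Acaca (0.00) and Fads1 (-0.03) were lowest. In Ins-leading barcodes Acly, which supplies acetyl-CoA, was at 254.0 and 289.4 CPM (0.19, 0.15 to 0.22), followed by Fasn (0.11), with Acss2 (0.02) and Elovl6 (-0.12) lowest.

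Of the 9 measured genes listed for microsomal electron transfer and related reductases, none was past the limit in Gcg-leading, Ins-leading or Sst-leading barcodes. In Ppy-leading barcodes 1 of the 9 was lower by the limit, where 1.28% of genes were. It was the heme oxygenase Hmox1, at 27.3 and 19.1 CPM (-0.52, -0.73 to -0.30), named here after its values were seen. In nonendocrine barcodes 1 of the 9 was higher by the limit, near the 9.55% of genes that were. It was Cyb5a, at 266.5 and 382.1 CPM (0.52). Intervals lay above 0 for 4 of the 9 and below 0 for 2, Pgrmc2 (-0.30) and Cyb5b (-0.21), and the median ratio was 0.16. The share of all genes with such intervals was not counted. Cyb5a, the cytochrome b5 that serves some of the same enzymes, was higher in GKO, at 20.4 and 25.6 CPM in Gcg-leading (0.33, 0.12 to 0.54) and 35.4 and 46.9 CPM in Ins-leading barcodes (0.40, 0.31 to 0.49). Cyb5b was at 25.9 and 29.6 CPM (0.19) and Hmox2, a heme oxygenase that takes electrons from Por, at 42.1 and 41.9 CPM (-0.01) in Gcg-leading barcodes, where Pgrmc2 was at 59.1 and 58.3 CPM (-0.02). In Ins-leading barcodes Hmox1 was at 5.58 and 7.41 CPM (0.41), Cyb5r3 at 125.7 and 129.9 CPM (0.05) and Hmox2 at 35.4 and 36.5 CPM (0.04). The median ratio of the 9 was 0.12 in both classes.

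Genes whose level most resembled that of Por were taken over 18 points, the 4 hormone classes and 5 marker groups in each library, among 2035 genes at 20 CPM or more at every point. They were Tvp23b (r = 0.853), Pdcd4 (0.847), Bsg (0.846), Atxn10 (0.819) and Wbp5 (0.814). For the sum of 7 they were Cd2ap (r = 0.849), Slc25a51 (0.813), Phf14 (0.804), Dctn3 (0.784) and Tm9sf3 (0.781). Points of the same library share its sequencing and free RNA, and the 2 points of a class share the class, so these values are descriptions.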

How the data were processed

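Per the file headers and the study's methods, the authors aligned reads of each library with Cell Ranger 5.0.1 to mm10 and deposited raw UMI counts per gene and barcode, without removal of free RNA. The authors' later merging and log-normalization are not in these counts. The methods say that reads were down-sampled across samples where required, and whether that was done here is not given in the sources used here. Here barcodes under 500 genes or over 10% mitochondrial UMIs were dropped, the others were classed by leading hormone, and counts were summed per class and library and scaled to 1000000 UMIs (CPM). Log2 ratios carry exact 95% Poisson intervals (Python 3.11.15, SciPy), which cover counting error only. Genotypes were not tested, having 1 library each, and "past the limit" means a log2 ratio of at least 0.5 either way. No doublet caller was run, and barcodes with a second hormone were left out as an alternative. The intervals were tried on Poisson counts simulated at the sums of the Gcg-leading class. Such counts hold no variation between barcodes or pools, so the trial does not cover it. TMM factors came from edgeR 4.0.16 (R 4.3.3). Members and lists were chosen with earlier results of these data known. Named genes of each list are the 2 highest and 2 lowest ratios in Gcg-leading and in Ins-leading barcodes. Spring1, a listed sensing gene, was not analysed here. Some genes that this rule names are not reported here.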

Additional observations from a re-analysis of the deposited data

Results flagged for a closer look

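With 1 library per genotype none of these differences was tested, and each is given because the counting interval of the log2 ratio of GKO to WT lay above 0 in 1 class and below 0 in another. Idi1 stood higher by 0.82 in Gcg-leading than in nonendocrine barcodes (0.56 and -0.26), by 0.93 in Sst-leading (0.67) and by 0.74 in Ppy-leading barcodes (0.48). Insig1 differed by 0.41 between Gcg-leading (0.22) and Ins-leading barcodes (-0.19). Fdft1 differed by 0.94 between nonendocrine (0.66) and Ins-leading barcodes (-0.28). The nonendocrine values carry the difference in makeup between libraries given above, acinar markers included, and its part was not tested. After thinning to 5000 UMIs the Fdft1 ratios were 0.16 and -0.00099, the Insig1 ratio in Gcg-leading barcodes was 0.092 and the Idi1 ratio in Sst-leading barcodes was 0.30, each with an interval that held 0.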

How the results depend on the processing

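No paired analysis was possible because each genotype has 1 library and the labels number no pairs. For the sum of 7 and for Por in 5 classes, 79 of 90 values under 9 alternatives stayed within the interval of the value reported, and 11 did not. In Gcg-leading barcodes Por was -0.77 after thinning to 5000 UMIs. In Ins-leading barcodes Por was -0.58 with TMM and -0.36 after thinning, and the sum was -0.10 without hormone UMIs, -0.12 with TMM and 0.15 in barcodes of 10000 to 30000 UMIs. With the leading hormone at 25% or more the Sst-leading sum was 0.051 and Por -0.059. In nonendocrine barcodes the sum was 0.16 with no barcode filter, and Por was -0.12 as a mean per barcode and 0.33 in barcodes of 10000 to 30000 UMIs. Of 315 values for single sterol genes, 297 stayed within the interval. With at least 50 UMIs in place of 200, the genes higher and lower by the limit were 507 and 441 (Gcg-leading), 695 and 497 (Ins-leading), 422 and 426 (Sst-leading), 514 and 293 (Ppy-leading) and 1625 and 1255 (nonendocrine). With TMM they were 158 and 297 in Ins-leading barcodes, and 86 were higher in Ppy-leading barcodes. The causes were not tested. Depth limits single genes most: in Gcg-leading barcodes Idi1 rests on 149 and 284 UMIs.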
